A study of Mus musculus with 4 samples.

Results

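The genes described here form the kinase core of the RAS-ERK cascade and its scaffolds. They are the RAF kinases Araf and Braf, the MEK kinases Map2k1 (MEK1) and Map2k2 (MEK2), the ERK kinase Mapk3 (ERK1), the scaffolds Ksr1 and Ksr2, and the scaffold Shoc2. Members were the rows of the library tables with 1 of these symbols, and all 8 were found among the 24421 genes listed. Other RAF and ERK genes of this cascade were not analysed here. Mapk4, Mapk6 and Mapk7, of other MAP kinase modules, are described below among the partners of these kinases. RNA was sequenced from 4 libraries of mouse brain cells in a study of ERK signalling in a Noonan syndrome model. Each library held 100 fluorescent cells collected by hand. The 2 libraries labelled excitatory are of αCaMKII-positive neurons and the 2 labelled inhibitory are of vGAT-positive neurons. Per the labels' protocols the colonies were αCaMKII-Cre, in which the promoter of a kinase of forebrain glutamatergic neurons drives the recombinase, and vGAT-IRES-Cre, in which the gene of the vesicular GABA transporter does. Both were bred to wild-type C57Bl/6J mice, and the animals were males of 3 to 5 months. The labels name no disease allele or treatment for these libraries. They do not give the brain region, the source of the fluorescence or the number of animals behind a library, so p-values measure the spread between libraries, which may be technical. Label and colony cannot be told apart.

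In this cascade an active RAS protein brings a RAF kinase to the membrane. RAF then phosphorylates MEK, and MEK phosphorylates ERK on a threonine and a tyrosine. KSR proteins resemble RAF, bind RAF, MEK and ERK, and promote MEK activation. SHOC2 forms a complex with MRAS and protein phosphatase 1 that removes an inhibitory phosphate from RAF. In neurons ERK signalling takes part in synaptic plasticity and memory, and mutations of several of these genes cause Noonan syndrome or related RASopathies.

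A deposited value is log2(normalized reads + 1), and a difference is excitatory minus inhibitory on that scale, with no correction for gene length. Genes above 0 numbered 12609 to 12798 per library, and the spacing of the lowest values put depth at about 61900000 to 74200000 reads, an estimate. Differences were common: limma's moderated test called 9777 of 13619 tested genes, which is 71.8%, with a threshold of 0.05 on the adjusted p. The median difference of all tested genes was 0.52. Values after median-of-ratios scaling, which brought that median to -0.01, are called scaled below. Of the called genes (65.9% of tested genes after scaling) 62.6% were higher in excitatory replicates in the deposited and 49.2% in the scaled values. Marker genes supported the labels only in part, so the names excitatory and inhibitory stand for the labels. Slc32a1, the vGAT gene, was listed at 0 in all 4 libraries. Camk2a was higher in excitatory replicates (0.87, limma adjusted p = 3.18e-04), whereas Slc17a7, Gad1 and Gad2 did not pass (adjusted p of 0.182, 0.0649 and 0.824). After scaling Gad1 passed and was higher in inhibitory replicates (-1.02, limma adjusted p = 0.00768), and Slc17a7 and Gad2 again did not pass (0.312 and 0.137). The scaled and summed linear level of 8 microglia and leukocyte markers was 15448 and 18278 in excitatory against 74394 and 55614 in inhibitory replicates. In that list 6 of 8 were higher in inhibitory replicates, and Ptprc was at 0 in both excitatory replicates. The sum of 8 oligodendrocyte markers was 2410000 and 2470000 against 3410000 and 3210000. By gene, 3 of them were higher in excitatory and 1 in inhibitory replicates (3 and 3 scaled). For 7 endothelial and mural markers it was 927 and 1070 against 3.17 and 10.01, with Cldn5, Cdh5 and Vtn at 0 in all libraries. The sum of 8 astrocyte markers was 1670000 and 1730000 against 1580000 and 1400000. By gene, 6 of these 8 were higher in excitatory and 0 in inhibitory replicates, which became 3 and 2 after scaling. The part of these other cell types in the differences described next was not tested. In such pooled cells, fewer cells of a type and less RNA per cell cannot be told apart.

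All of these genes but Map2k1 differed between the labels, and the paralogs of the RAF and KSR pairs differed in opposite directions. All 8 genes passed the filter on low values (2 or more libraries with a value of 1 or more), and 7 passed limma's test, beside 71.8% of all tested genes. Araf, Map2k2, Mapk3 and Ksr1 were higher in excitatory replicates, and Braf, Ksr2 and Shoc2 in the inhibitory ones, with the same 4 and 3 genes after scaling. By direction, 45.0% of tested genes were called higher in excitatory and 26.8% higher in inhibitory replicates (32.4% and 33.5% scaled). The 2 labels did not overlap for any of the 8 genes, as for 86.4% of all tested genes. The median absolute difference was 1.57 over the members and 1.62 over all tested genes, so as a group they differed about as much as a typical gene. Without excitatory replicate 1, or without excitatory replicate 2, 4 members passed, beside 45.2% and 44.8% of all tested genes. Without inhibitory replicate 1 or 2, 5 and 6 members passed, beside 47.4% and 48.1%.

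**Figure D1:**
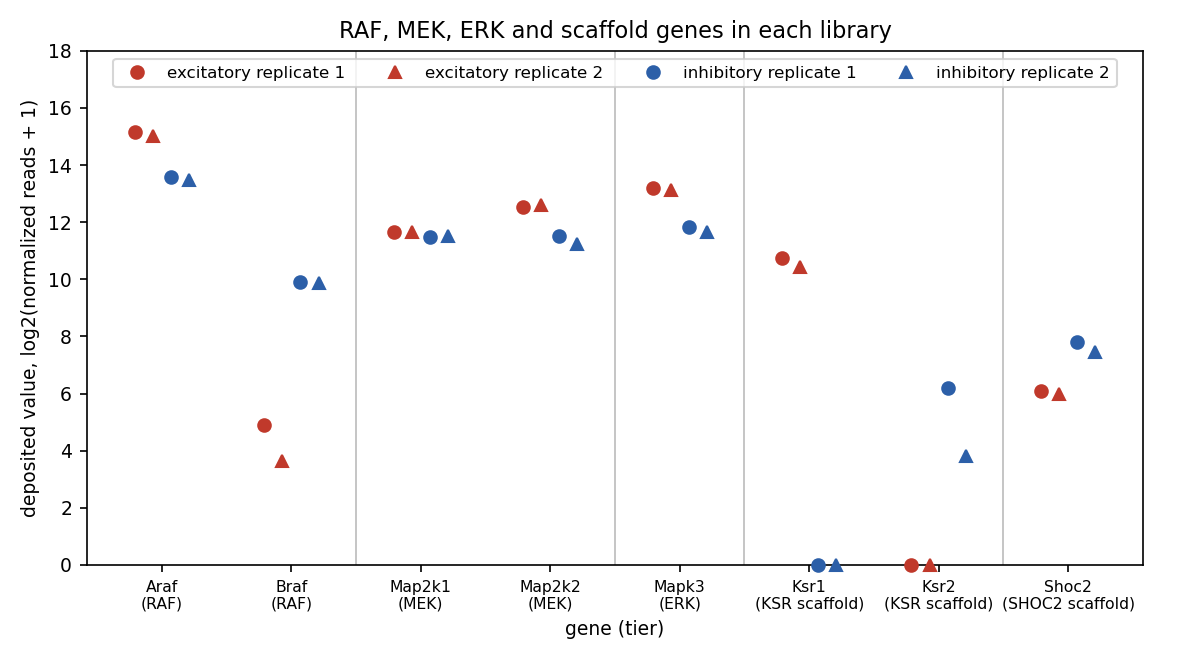
Deposited log2(normalized reads + 1) values of the 8 genes (horizontal axis, grouped by tier) in each of the 4 libraries; circles are replicate 1, triangles replicate 2, red excitatory and blue inhibitory. Ksr1 sits at 0 in both inhibitory and Ksr2 at 0 in both excitatory replicates, and Braf lies between 3.63 and 4.90 in excitatory against 9.88 and 9.89 in inhibitory replicates.

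The RAF paralogs moved in opposite directions. Araf lies at chrX:20797814-20860519 (plus strand) and Braf at chr6:39603237-39725463 (minus strand) of mm10 in GENCODE M21. The 250 bases upstream of their RefSeq starts (GRCm38.p6) are shown because these paralogs split between the labels. Capitals mark matches on either strand to 1 of 5 motifs searched: the GC box GGGCGG, the E-box CACGTG, the cyclic AMP response element TGACGTCA, the ETS site CCGGAAGT and the TATA box TATAAA. The Araf window is chrX:20848293-20848542, inside the GENCODE gene, and the Braf window is chr6:39725464-39725713. Both are written 5′ to 3′ on the gene's strand.
Araf: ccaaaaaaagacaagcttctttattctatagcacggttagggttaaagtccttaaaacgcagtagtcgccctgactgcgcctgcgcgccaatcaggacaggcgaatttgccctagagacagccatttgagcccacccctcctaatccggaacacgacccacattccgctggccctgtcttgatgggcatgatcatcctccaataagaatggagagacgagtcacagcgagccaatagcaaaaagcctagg
Braf: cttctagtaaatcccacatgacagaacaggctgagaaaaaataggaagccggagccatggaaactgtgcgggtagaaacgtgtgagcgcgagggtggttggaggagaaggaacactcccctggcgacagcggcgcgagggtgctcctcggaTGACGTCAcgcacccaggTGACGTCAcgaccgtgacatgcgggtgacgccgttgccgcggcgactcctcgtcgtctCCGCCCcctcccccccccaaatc
The Braf window held 2 matches to TGACGTCA and 1 to the GC box, and the Araf window held no match to any of the 5. Of 32851 promoter windows of this length, 1.55% held TGACGTCA at least once, 0.0304% (10 windows) 2 or more times, and 32.7% held the GC box. A match describes these letters only.

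Araf, which encodes the RAF kinase with the weakest activity towards MEK, had values of 15.17 and 15.01 in excitatory and 13.59 and 13.48 in inhibitory replicates. Both excitatory libraries were above both inhibitory ones. The difference was 1.56 (SE 0.10, limma adjusted p = 2.63e-04), a 2.94-fold difference that was 2.02-fold after scaling (adjusted p = 0.00149). Its rank by deposited value, which does not depend on a library's scaling, was 301 and 328 in excitatory and 682 and 797 in inhibitory replicates. The call held without any 1 library, with adjusted p of at most 0.0264.

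Braf, the RAF kinase with the strongest activity towards MEK, had values of 4.90 and 3.63 in excitatory replicates and of 9.89 and 9.88 in the inhibitory ones. The inhibitory libraries agreed closely and excitatory replicates differed by 1.27. At about 23 and 10 estimated reads, against 1318 and 1078 in inhibitory replicates, the excitatory values rest on few reads. The difference was -5.62 (SE 0.50, limma adjusted p = 6.65e-04), 49.3-fold on the log2(value + 1) scale and 71.0-fold after scaling. Braf ranked 10345 and 11069 in excitatory and 5465 and 5445 in inhibitory replicates. Without inhibitory replicate 1 or inhibitory replicate 2 it did not pass (adjusted p of 0.058 and 0.0573). Of its exon bases 146 are shared with Ndufb2, a gene of the opposite strand. Ndufb2 had 13.61 and 13.54 in excitatory and 12.79 and 13.23 in inhibitory replicates, so it was not low where Braf was low.

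Araf was the more abundant RAF paralog per kilobase of exon in every library, by very different ratios. The exon union was 6541 bases for Araf and 13862 for Braf. Per kilobase, Araf was 2704 and 6185 times Braf in excitatory replicates and 27.5 and 25.7 times in inhibitory replicates. The within-library log2 difference, which is free of library scaling, was 10.83 ± 0.79 (SD, n = 2) in excitatory and 3.65 ± 0.071 in inhibitory replicates. The 2 labels were thus 7.18 apart, beyond the spread between replicates. The exact permutation test (two-sided) gave p = 0.333, the smallest that 2 libraries against 2 allow, and 0.333 after adjustment over the 3 paralog pairs compared.

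The MEK paralogs differed in degree. Map2k1 (chr9:64185770-64253631, minus strand) had values of 11.65 and 11.67 in excitatory and 11.50 and 11.52 in inhibitory replicates. These were the closest values of any member across the labels. The difference, 0.15 with an SE of 0.14, missed the threshold (limma adjusted p = 0.373), and its unadjusted 95% interval ran from -0.22 to 0.53. After scaling the difference was -0.39 (adjusted p = 0.0645, unadjusted 95% interval -0.76 to -0.02), so the direction for Map2k1 depends on the scaling. Its rank was 3469 and 3347 in excitatory and 2786 and 2810 in inhibitory replicates.

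Map2k2 (chr10:81105915-81133975, plus strand), which encodes the other kinase that activates ERK, had 12.53 and 12.59 in excitatory against 11.50 and 11.25 in inhibitory replicates. Each excitatory value was above each inhibitory one. The difference was 1.19 (SE 0.16, limma adjusted p = 0.00239), 2.27-fold and 1.56-fold after scaling (adjusted p = 0.0306). Without excitatory replicate 1 or excitatory replicate 2 it did not pass (0.0608 and 0.0644).

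Within the MEK pair the order per kilobase of exon changed between the labels. Map2k1 made up 47.7% and 46.9% of the pair's level in excitatory and 62.4% and 66.9% in inhibitory replicates. The within-library log2 difference of Map2k1 minus Map2k2 was -0.90 ± 0.033 (SD, n = 2) in excitatory and 0.13 ± 0.20 in inhibitory replicates. This shift of -1.03 is larger than the spread between replicates and is not affected by scaling. The exact permutation p was 0.333, again the smallest possible. Which of the 2 is higher per kilobase rests on the annotated exon lengths of 3391 and 5663 bases.

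**Figure D2:**
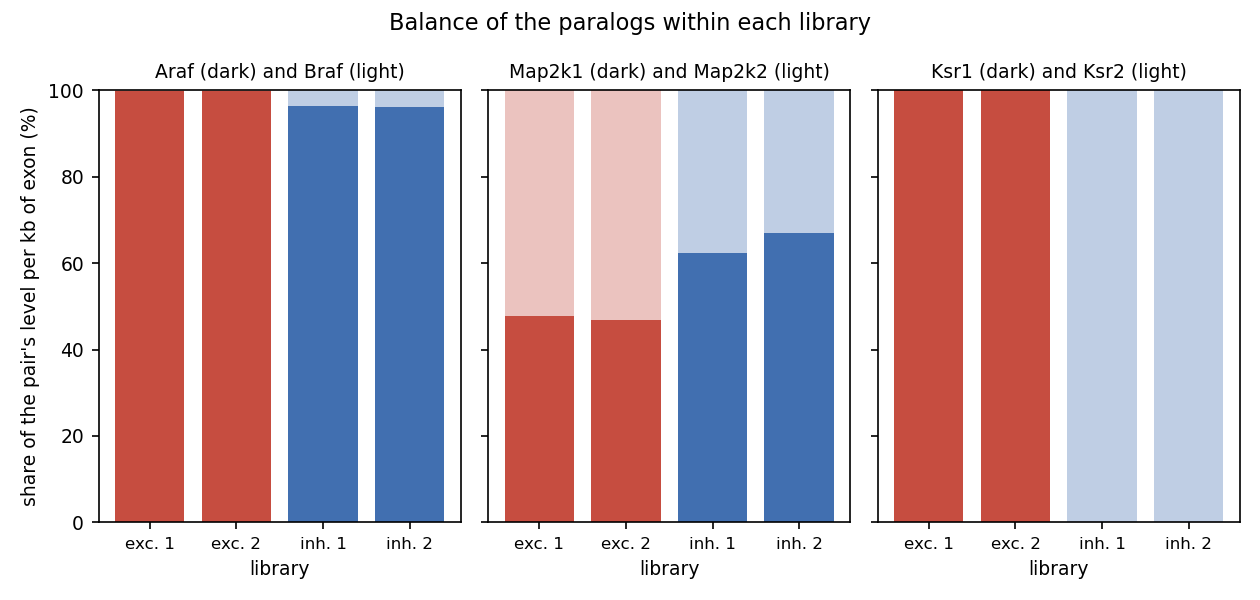
Share of each paralog in the pair's level per kilobase of exon (vertical axis, %) in the 4 libraries (horizontal axis; exc. excitatory, inh. inhibitory, with replicate number); dark is the first gene, light the second. Map2k1 takes 46.9% to 47.7% of the MEK pair in excitatory and 62.4% to 66.9% in inhibitory replicates, Araf takes over 96% of the RAF pair in every library, and the KSR pair is all Ksr1 or all Ksr2.

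Mapk3, the ERK1 gene at chr7:126759601-126765819 (plus strand), was higher in excitatory replicates. Its values were 13.19 and 13.13 there and 11.85 and 11.67 in inhibitory replicates. Replicates lay within 0.18 of each other and the labels did not overlap. The difference was 1.40 (SE 0.13, limma adjusted p = 8.25e-04), 2.64-fold and 1.81-fold after scaling (adjusted p = 0.00669). Mapk3 ranked 1499 and 1512 in excitatory and 2321 and 2574 in inhibitory replicates. It passed without any 1 library, with adjusted p between 0.0191 and 0.0389.

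The KSR scaffolds were each listed above 0 under a single label. Ksr1 (chr11:79013440-79146407, minus strand) had values of 10.74 and 10.43 in excitatory replicates, about 1325 and 1118 estimated reads, and was listed at 0 in both inhibitory replicates. Ksr2 (chr5:117414000-117775003, plus strand) was listed at 0 in both excitatory replicates and had 6.20 and 3.80 in the inhibitory ones, about 101 and 15 estimated reads. No library listed both genes above 0. Both passed limma's test, Ksr1 with an adjusted p of 9.49e-05 and Ksr2 with 0.00586. Under the label listed at 0 the SD was 0 because of the floor, which lowers the SE, so these p-values may be too small. For Ksr2 the SD in inhibitory replicates was 1.70 and the SE of the difference 0.87. Ksr1 passed without any 1 library (at most 0.0128), and Ksr2 did not pass without excitatory replicate 1 or excitatory replicate 2 (0.146 and 0.145). No fold is given against a group listed at 0.

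Such one-sided genes were not rare in these tables. Of the tested genes, 7.68% were listed at 0 in both inhibitory replicates and above 0 in both excitatory ones, and 7.84% the other way round. A value of at least 10 in both excitatory replicates with 0 in both inhibitory ones, as Ksr1 had, was found in 1.06%. A listed 0 was not read as absence. Of 46 housekeeping genes of translation, transcription and protein breakdown, 2 were also at 0 in both excitatory replicates. These were the tRNA synthetase genes Farsa and Lars, with values of 7.60 or more in the inhibitory ones. None of the 46 was at 0 in both inhibitory replicates with at least 5 in both excitatory ones. The list thus gives no example with 0 in both libraries on the side of the Ksr1 zeros, but Cars came close. This tRNA synthetase gene had 11.58 and 12.32 in excitatory replicates, a low value in inhibitory replicate 1 and 0 in inhibitory replicate 2. Its difference was 11.2, beside 10.6 for Ksr1. Housekeeping genes high under 1 label and at or near 0 under the other were thus found on both sides. The replicate gap of Ksr2, 2.40, was wide: of 1257 tested genes with a mean within 1 of its mean in inhibitory replicates the median gap was 0.68, and 4.38% had a wider one. Gm11201, an antisense gene that shares 186 exon bases with Ksr1, had 9.15 and 8.83 in excitatory replicates and was also listed at 0 in both inhibitory ones. Without strand information, reads of Gm11201 and Ksr1 in the shared bases cannot be told apart.

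The upstream windows of the KSR genes are shown for the same reason as those of the RAF genes, with the same capitals and build. For Ksr1 it is the more upstream of 2 RefSeq starts, chr11:79146474-79146723, and for Ksr2 chr5:117413752-117414001.
Ksr1: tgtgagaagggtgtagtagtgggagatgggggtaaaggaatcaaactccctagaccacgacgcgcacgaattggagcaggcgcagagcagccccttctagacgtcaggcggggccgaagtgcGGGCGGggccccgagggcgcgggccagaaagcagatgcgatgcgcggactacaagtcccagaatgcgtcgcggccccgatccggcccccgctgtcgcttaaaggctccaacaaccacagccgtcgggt
Ksr2: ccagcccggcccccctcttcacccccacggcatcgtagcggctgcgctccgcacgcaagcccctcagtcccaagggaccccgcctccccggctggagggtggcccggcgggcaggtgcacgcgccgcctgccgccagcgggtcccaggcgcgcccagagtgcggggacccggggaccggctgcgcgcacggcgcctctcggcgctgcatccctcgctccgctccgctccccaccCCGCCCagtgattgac
Each window held 1 match to the GC box and none to the other 4 motifs. The G and C content was 64.4% for Ksr1 and 78.0% for Ksr2, beside a median of 52.4% over all promoter windows. Both windows thus held the same counts of these 5 motifs.

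Shoc2, the scaffold of the phosphatase complex that acts on RAF (chr19:53944306-54033133, plus strand), was higher in inhibitory replicates. It had 6.07 and 6.00 in excitatory and 7.81 and 7.45 in inhibitory replicates, about 52 and 52 against 310 and 199 estimated reads. Both inhibitory values lay above both excitatory ones. The difference was -1.59 (SE 0.31, limma adjusted p = 0.00846), 3.01-fold and 4.37-fold after scaling (adjusted p = 0.0042). The call was lost without excitatory replicate 1 (0.0775), excitatory replicate 2 (0.0808) or inhibitory replicate 1 (0.0602). Shoc2 shares 97 exon bases with Bbip1 on the opposite strand, which had 13.27 and 13.09 in excitatory and 12.36 and 12.48 in inhibitory replicates.

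**Figure D3:**
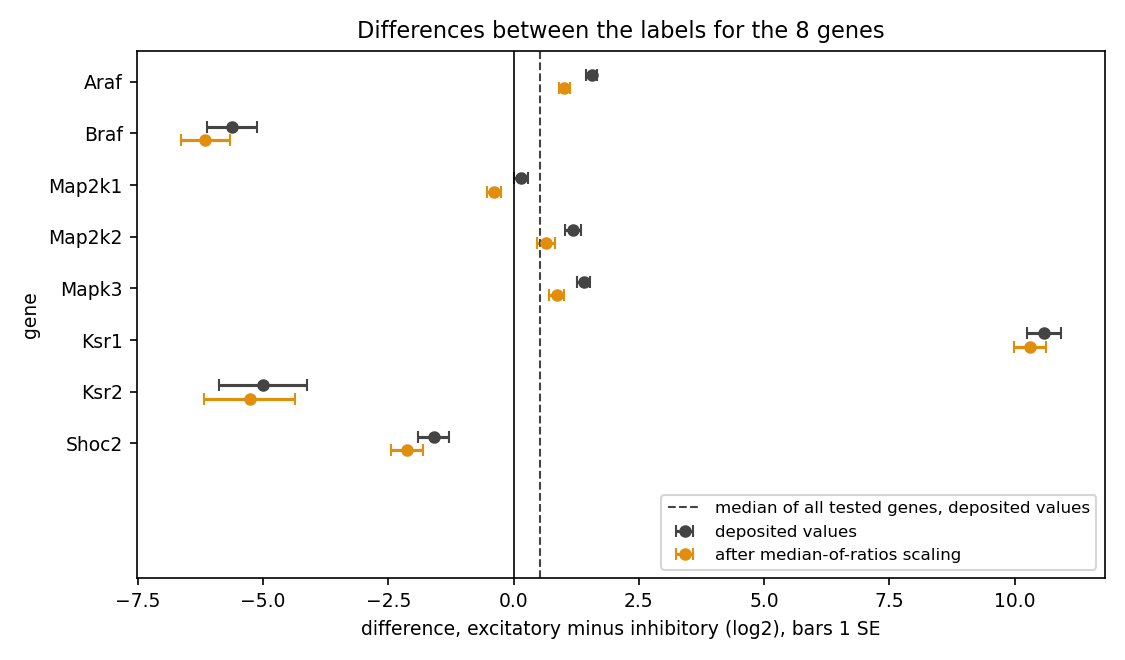
Difference of each gene, excitatory minus inhibitory on the log2 scale (horizontal axis), with bars of 1 SE from limma, for the deposited (grey) and scaled values (orange); the dashed line is the median of all tested genes, 0.52. Scaling moves each gene to the left and changes the sign for Map2k1, from 0.15 to -0.39; the values of Ksr1 and Ksr2 are set against libraries listed at 0 and are no fold.

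Per kilobase of exon, the deposited levels spanned a wide range and their order below Araf and Mapk3 differed between the labels. In excitatory replicates the order was Araf, Mapk3, Map2k2, Map2k1, Ksr1, Shoc2 and Braf, with Ksr2 listed at 0. Mean normalized reads per kilobase fell there from 5339 for Araf and 4049 for Mapk3 to 11.6 for Shoc2 and 1.45 for Braf. In inhibitory replicates it was Araf, Mapk3, Map2k1, Map2k2, Braf, Shoc2 and Ksr2, with Ksr1 listed at 0. The means there were 1815 for Araf, 1536 for Mapk3, 68.2 for Braf and 3.15 for Ksr2. Replicate values of neighbours did not overlap in either order, although with 2 libraries this is a weak criterion. Araf and Mapk3 led under both labels, and Braf moved from the lowest listed level to the fifth.

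The partners of these kinases were compared next, with lists chosen by role. Of 53 partner genes listed by symbol, 46 could be tested. Of these, 23 were higher in excitatory and 11 in inhibitory replicates, 73.9% in all beside 71.8% of all tested genes. After scaling the counts were 10 and 15. The median difference was 0.41 (-0.13 scaled) beside 0.52 for all tested genes, so the partners as a group were close to the background.

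Most regulators of RAF that passed were higher in excitatory replicates in the deposited values, but not in the scaled ones. Of 13 tested, 9 were higher in excitatory and 2 in inhibitory replicates, which became 2 and 3 after scaling. Ywhaq, a 14-3-3 protein that binds phosphorylated RAF, had 14.97 and 14.87 in excitatory against 13.36 and 13.20 in inhibitory replicates (1.64, SE 0.10, limma adjusted p = 2.43e-04). Cdc37, the co-chaperone that brings kinases such as RAF to HSP90, was higher in inhibitory replicates, with 9.83 and 9.86 against 11.79 and 11.53. So was Pak3, a kinase of the PAK family that acts on RAF and MEK, with 12.60 and 12.79 against 13.92 and 13.76. Ywhaq, Cdc37 and Pak3 kept their direction and passed after scaling.

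Of 6 tested genes of the SHOC2 complex and its binding proteins, 2 were higher in excitatory and 1 in inhibitory replicates, 0 and 2 after scaling. Among 11 tested genes of proteins that bind or modify KSR, 4 were higher in excitatory and 3 in inhibitory replicates (2 and 4 scaled). Ppp2r1b, a scaffold subunit of protein phosphatase 2A, had 7.23 and 7.47 in excitatory against 11.38 and 11.95 in inhibitory replicates, a 19.9-fold difference (limma adjusted p = 2.79e-04). Of 9 tested scaffolds of MEK and ERK, 5 were higher in excitatory replicates and 1 in the inhibitory ones (3 and 2 scaled). The arrestin gene Arrb2, whose product can hold RAF, MEK and ERK together at receptors, had 12.01 and 11.41 in excitatory replicates and was listed at 0 in both inhibitory ones. Iqgap1, a scaffold that binds MEK and ERK, had 5.07 and 5.47 in excitatory against 0.47 and 0 in inhibitory replicates.

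Genes of other MAP kinase modules differed in both directions. Of 10 listed, 3 were at 0 in all libraries, and the 7 tested all passed, beside 71.8% of all tested genes. Of these, 3 were higher in excitatory and 4 in inhibitory replicates, with the same counts after scaling. Map2k5, the kinase that activates ERK5, had 10.59 and 9.71 in excitatory replicates and was listed at 0 in both inhibitory ones. Mapk7, the ERK5 gene, was listed at 0 in both excitatory replicates and had 9.89 and 9.45 in the inhibitory ones. The kinase and its substrate were thus listed above 0 under opposite labels. Upstream of them, Map3k2 had 6.44 and 5.94 in excitatory replicates and 0 in both inhibitory ones, whereas its paralog Map3k3 had 1.40 and 2.31 against 8.59 and 8.09. The atypical MAP kinase gene Mapk4 had 11.89 and 11.85 in excitatory and 9.78 and 9.75 in inhibitory replicates. Its paralog Mapk6 had 0 and 1.32 against 8.30 and 7.14. The 12 partners named here were chosen by the smallest p in these same libraries. Fits without 1 library are therefore no separate support for them.

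**Figure D4:**
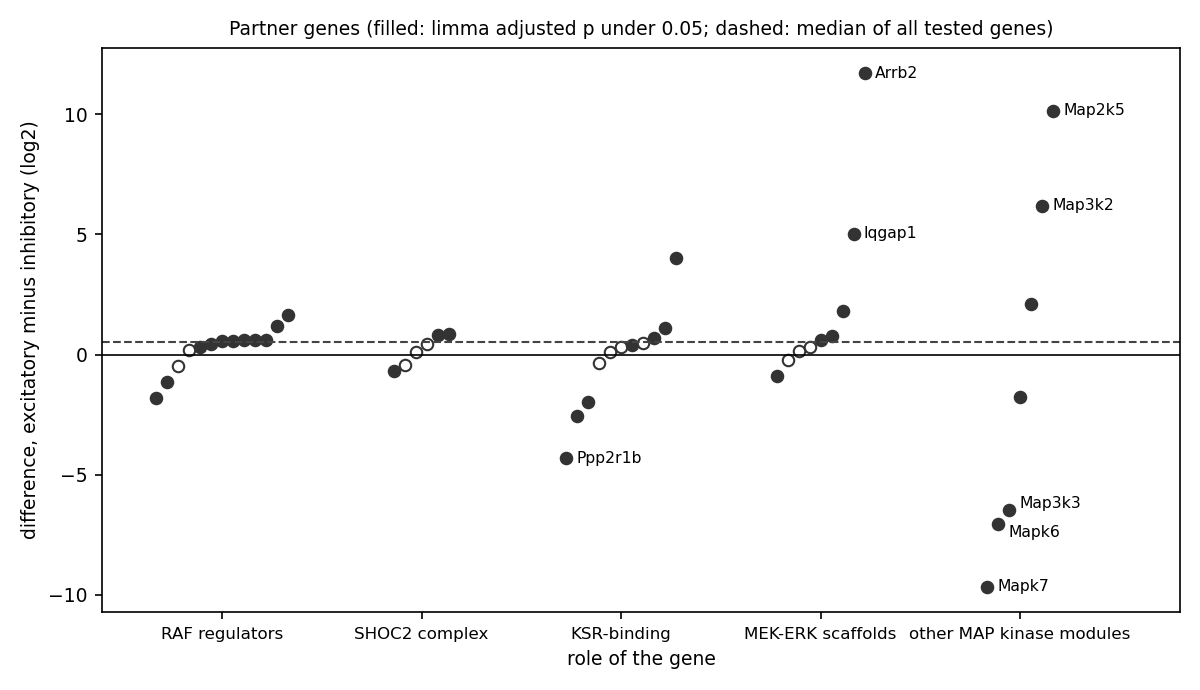
Difference of each tested partner gene, excitatory minus inhibitory on the log2 scale of the deposited values (vertical axis), by role (horizontal axis); filled points passed limma's test and the dashed line is the median of all tested genes, 0.52. RAF regulators lie between -1.82 for Cdc37 and 1.64 for Ywhaq, while Map2k5 and Mapk7 lie at 10.15 and -9.67, values set against libraries listed at 0.

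Genes with the most similar pattern over the 4 libraries were found by the Euclidean distance of values centred on each gene's mean, among genes with a mean within 1 of the member's. For Braf these were B3gat2 (distance 0.095), with 5.28 and 3.89 against 10.26 and 10.24, and Ppil4 (0.18). Only 8 of 1554 candidates lay within 0.5 of Braf, whereas 579 of 2439 did for Map2k1. The nearest to Mapk3 were Glrx3 and Psmc3, with 446 of 1975 candidates within 0.5. Araf was nearest to Il11ra1 and Kif1b (119 of 809), Map2k2 to Mrps26 and Srsf5 (519 of 2239), and Shoc2 to Atrnl1 and Utp3 (19 of 1547). Smaller shares of candidates thus lay within 0.5 of Braf and Shoc2 than of Map2k1, Map2k2 or Mapk3, as a description of 4 libraries. Replicates also differed more at low values. The median gap was 0.66 near Braf's excitatory mean and 0.42 near Shoc2's inhibitory mean. Over all tested genes it was 0.30 in excitatory and 0.29 in inhibitory replicates. A fixed radius of 0.5 therefore cannot tell how unusual a pattern is at its level.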

How the data were processed

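Per the labels' protocols, cDNA was made with the SMART-seq v4 kit and libraries with Nextera XT; no step that keeps strand is described. TopHat, edgeR and mm10 are named in the submitters' processing notes, without versions or roles; the counting tool is not given in the sources used here. In each file the authors deposited 1 log2 value per gene and library. The added 1 and the scaling, which differs between libraries (1 read was worth 1.29, 1.23, 0.72 and 0.874 on the linear scale in excitatory 1, excitatory 2, inhibitory 1 and inhibitory 2), were read from evenly spaced low values; estimated reads extend that spacing.

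limma 3.58.1 (R 4.3.3), with a mean-variance trend, was fitted to genes that reached a value of 1 in 2 or more libraries, and p-values were adjusted by Benjamini-Hochberg over all tested genes. Named genes were the 8 members, 5 label checks, in each direction the 6 partners with the smallest p, partners at 0 under 1 label with at least 5 in both libraries of the other, and the 2 nearest genes of each member above 0 throughout. Members and lists were chosen with earlier results of these data known. Exon lengths are from GENCODE M21, where 23334 of 24421 symbols matched 1 gene; promoter sequences are from RefSeq (GRCm38.p6). PCR copies were not removed by molecular identifiers, so read numbers are not numbers of molecules. Alternatives were other scalings, added value, filters, variance models, a replicate block and leaving out each library.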

Additional observations from a re-analysis of the deposited data

How the results depend on the processing

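Over 95 alternative fits of the 8 members, 84 kept direction and side of the threshold, 9 lost the call, all by leaving out 1 library, and 2 changed sign: Map2k1 was -0.39 with median-of-ratios and -0.37 with upper-quartile scaling. Without any 1 library, 4 to 6 members, 21 to 25 partners and 6103 to 6551 of all tested genes passed; the lone library of a label is then assumed to vary like the others. In those fits Braf ranged from -6.26 to -4.99, Map2k2 from 1.06 to 1.31, Ksr2 from -6.20 to -3.80 and Shoc2 from -1.77 to -1.41. Ksr2 had no value under the stricter filter, which asks for a value of 5 in 2 or more libraries and under which 6 of 7 members passed. With 5 added before the log, the difference between labels in the Ksr1 minus Ksr2 balance was 11.2 in place of 15.6, since both genes are at 0 under 1 label. Deviations of same-numbered libraries did not correlate across genes (r = -0.0019), so the numbers were not read as pairs. With the replicate block 7 members, 32 partners and 9782 genes passed, and no member's call changed. Low read numbers limit Braf in excitatory and Ksr2 in inhibitory replicates.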

Other observations

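The upstream windows of the other members differed in their short motifs. The Map2k1 window (chr9:64253606-64253855) held 4 matches to the GC box and the Map2k2 window (chr10:81105665-81105914) held 1. Of the 2 RefSeq starts of Shoc2, 1 had 7 GC box matches and the other a single ETS site match, a motif found in 2.88% of all windows. GC boxes were present 2 or more times in 16.7% of all windows. No entry for Mapk3 was used. None of the 7 members with a window had an E-box or TATA box match there, and these are counts of letters with no test.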
